A study of Mus musculus with 8 samples.

Results

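The kinesins were examined here as a gene family in germ cells of *Mgat2* cKO mice. All gene rows named *Kif* or *Kifc* with a number and an optional letter were taken as members, which gave 43 kinesin heavy chain genes of 55357 genes in the deposited table. A further 4 rows with kinesin names, which are pseudogenes or antisense transcripts, were not members. Of the 43 genes, 38 reached a TPM (a transcript level scaled for gene length and library depth) of 1 or more in some library and were tested among 20187 genes. By role, 9 were placed among ciliary and flagellar kinesins, 15 among spindle kinesins, 15 among transport kinesins and 3 among others, and *Kif19b* was left without a role.

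RNA was sequenced from germ cells of 15-day testes of 8 C57BL/6 males, comprising 4 controls of genotype *Mgat2*[F/F] and 4 cKO males that were *Mgat2*[F/F]:*Stra8*-iCre, with 1 library per mouse. All 8 mice carried floxed *Mgat2* alleles, and only the cKO mice carried the *Stra8*-iCre transgene, whose expression begins in spermatogonia. Deletion was therefore directed to germ cells, and other testis cells in the fraction were not targeted. *Mgat2* encodes MGAT2, an N-acetylglucosaminyltransferase needed to form complex N-glycans. The question addressed was which transcripts differ between germ cells with and without it at an age when meiosis is under way. Libraries were non-stranded and held between 12584726 and 15907505 expected counts, the estimated number of read pairs per gene summed over genes.

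Kinesins are motor proteins that hydrolyse ATP to walk along microtubules or to take subunits off their ends. Spindle kinesins build the mitotic and meiotic spindle and complete cytokinesis, transport kinesins carry vesicles and organelles with the help of light chains and adaptors, and ciliary kinesins assemble or trim the axoneme or work within it. In the testis, germ cells divide by mitosis and meiosis and later grow a flagellum, while Sertoli cells depend on microtubule transport.

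The targeted gene was examined first. *Mgat2* (ENSMUSG00000043998) is a single-exon gene on chromosome 12 at 69230931 to 69233544 of GRCm39. Its normalised CPM (counts scaled to library size) are given, as for every gene here, in the order of replicates 1 to 4. They were 69.8, 31.8, 64.3 and 59.8 among controls, against 35.3, 20.1, 37.6 and 16.03 among cKO samples. Control replicate 2 lay within the range of the cKO samples, and controls 1, 3 and 4 lay above every cKO sample. Expressed as cKO over control, the log2 fold change was -1.05 (SE 0.36), with an adjusted p of 0.470 in edgeR's quasi-likelihood test and of 0.0242 in DESeq2. An exact two-sided permutation test over the 70 assignments of samples gave p = 0.0857, where the smallest possible p was 0.0286. Of its exon bases, 13.8% are also exons of genes on the opposite strand, whose reads cannot be told apart in non-stranded libraries.

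Libraries differed in germ cell stage markers. The summed TPM of 6 pachytene spermatocyte genes was 1661, 449, 658 and 371 in controls and 499, 144, 158 and 108 in cKO samples, so that replicate 1 was highest in both genotypes. All 6 pachytene genes had lower values in cKO, with a median log2 fold change of -1.67. Without control replicate 1 the median was -0.66 and 5 of 6 were lower, *Ccna1* being the exception at 0.14, and within replicates 2 to 4 it was -1.86 with 6 of 6 lower. One of them, *Piwil1*, had 271, 91.9, 134 and 76.4 TPM in controls and 64.8, 26.5, 27.5 and 21.7 TPM in cKO. It alone of the 6 had an unadjusted p under 0.05 in edgeR (0.0132, adjusted p 0.437), whereas *Mybl1* was at -0.14 (SE 0.10). Much of the pachytene sum was *Ldhc*, at 1208 TPM in control replicate 1 and 361 TPM in cKO replicate 1. Among 6 spermatid genes *Prm1*, *Prm2* and *Tnp2* were at or under 3 counts per library, and *Acrv1* had at most 4. The 2 tested genes went in opposite directions. *Dbil5* had 44.3, 16.7, 11.7 and 13.9 TPM in controls and 18.8, 6.95, 9.86 and 5.33 TPM in cKO. Its log2 fold change was -1.05 (SE 0.51). *Tnp1*, near the floor, had 0, 1, 0 and 2 counts in controls and 0, 0, 4 and 7 in cKO. Its log2 fold change was 1.71 (SE 1.42). Most spermatogonial genes ran the other way, with 7 of 8 higher in cKO and a median of 0.20. Of these 7, *Stra8* alone had an unadjusted p under 0.05 in edgeR (0.0401). The exception, *Ddx4*, was at -0.41 (SE 0.11), with an edgeR unadjusted p of 0.0039 and adjusted p of 0.340. Early spermatocyte genes had 4 of 6 lower and a median of -0.08. Of these 6, *Spo11* alone had an unadjusted p under 0.05 in edgeR (0.0045, adjusted p 0.350), at -0.54 (SE 0.16). *Dmc1* went the other way, at 0.33 (SE 0.16). Sertoli cell genes were plentiful in the fraction, with a sum over 8 genes of 4667 to 5701 TPM in controls and 4769 to 5727 TPM in cKO. The 6 genes of cycling cells summed to 559.6 to 687 TPM in controls and 577 to 677 TPM in cKO, with 4 higher and 2 lower in cKO. Among them *Ccnb2* alone had an unadjusted p under 0.05 in edgeR (0.0231), at -0.44 (SE 0.17), whereas *Ccnb1* was at 0.22 (SE 0.10). In such bulk samples, fewer cells of a type and less RNA per cell cannot be told apart.

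No kinesin passed the threshold for a genotype difference. In edgeR's test over all genes, 0 of 38 had an adjusted p under 0.05, where 0.0396% of all genes were called lower in cKO and 0.0% higher. DESeq2 also called 0 of the 38, where it called 1.42% of all genes lower and 0.0892% higher. At an unadjusted p under 0.05, 4 kinesins were lower in cKO, namely *Kif9*, *Kif6*, *Kif27* and *Kifc3*, or 10.5% against 6.28% of all genes tested. *Kif4* and *Kif26a* were higher at that threshold, or 5.26% against 2.62% of all genes tested. In normalised CPM, every cKO sample lay below every control for *Kifc3* alone and above every control for *Kif26a* alone, which happened in that direction for 3.03% and 2.47% of all genes. Which kinesins were apart depended on the measure. In TPM *Kif26a* overlapped, and *Kif3a*, *Kif24*, *Kif27* and *Kif20b* were also fully lower and *Kif4* fully higher in cKO. The share of all genes apart in TPM was not computed. The median log2 fold change of the 38 kinesins was 0.002, against 0.007 over all genes tested, with 19 kinesins on each side of 0.

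**Figure D1:**
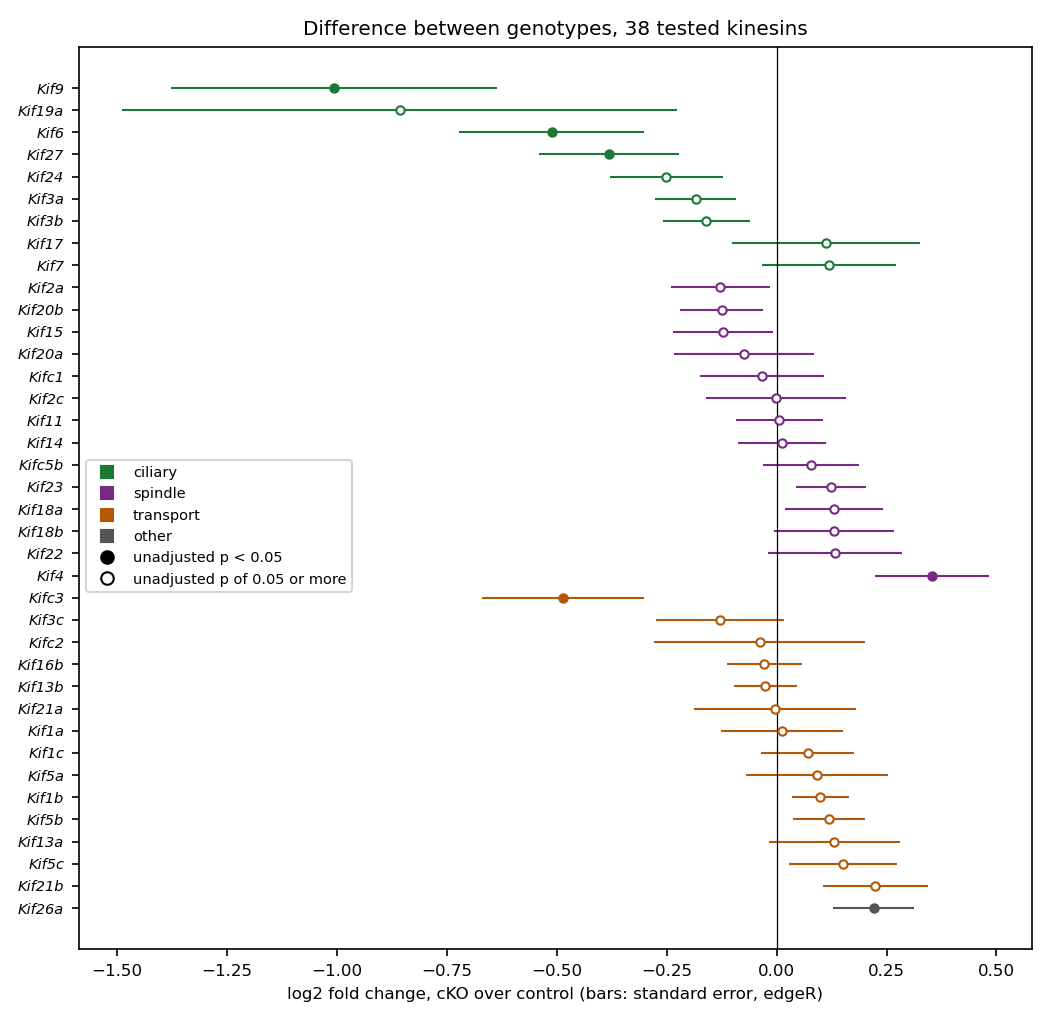
Log2 fold change of cKO over control (x axis) for the 38 tested kinesins (y axis), grouped and coloured by role, with bars showing the edgeR standard error and filled points an unadjusted p under 0.05. Most ciliary kinesins lie left of 0 and *Kif9* lies farthest, whereas spindle and transport kinesins lie on both sides; no gene passed the adjusted threshold.

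Counts by role were as follows. Among ciliary kinesins 7 of 9 were lower in cKO, with a median log2 fold change of -0.25, where 48.6% of all genes were lower and 51.3% higher. Leaving out control replicate 1 brought that median to -0.10. Spindle kinesins were divided into 6 lower and 8 higher with a median of 0.01, and transport kinesins into 6 lower and 8 higher with a median of 0.04. These last medians were close to that of all genes and changed sign when single samples were left out. The role lists were drawn up with results of these data known, and the difference between roles was not tested.

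Promoters of *Kif6* and *Kif27* are shown because both were among the kinesins lower at an unadjusted p under 0.05, and *Kif3a* because it is the most abundant ciliary kinesin and one of the 2 ciliary kinesins with an RFX half-site. Each is the 250 bases before the annotated start of the gene's principal transcript on the gene's own strand, read from GRCm39 with GENCODE annotation, and none overlaps an annotated untranslated region. Capitals mark CCAAT in *Kif6* and GTTGCC in *Kif3a*.
*Kif6*, chr17:49921862-49922111, plus strand: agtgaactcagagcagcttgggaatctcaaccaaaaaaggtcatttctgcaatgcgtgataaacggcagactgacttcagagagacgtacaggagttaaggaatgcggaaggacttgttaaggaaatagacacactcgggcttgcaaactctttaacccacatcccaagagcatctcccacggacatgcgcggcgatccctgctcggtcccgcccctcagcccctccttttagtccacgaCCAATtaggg
*Kif27*, chr13:58506937-58507186, minus strand: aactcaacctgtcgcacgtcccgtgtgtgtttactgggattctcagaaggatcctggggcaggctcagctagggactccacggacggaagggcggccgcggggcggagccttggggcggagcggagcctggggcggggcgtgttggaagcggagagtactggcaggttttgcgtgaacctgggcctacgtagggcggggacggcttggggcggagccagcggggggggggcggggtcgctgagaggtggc
*Kif3a*, chr11:53457918-53458167, plus strand: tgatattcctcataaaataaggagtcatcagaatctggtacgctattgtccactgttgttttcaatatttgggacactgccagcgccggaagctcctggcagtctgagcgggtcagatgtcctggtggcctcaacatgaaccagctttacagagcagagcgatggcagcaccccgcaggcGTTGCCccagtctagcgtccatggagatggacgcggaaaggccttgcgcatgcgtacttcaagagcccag

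The letters searched on both strands were GTTGCC, the half-site of RFX factors that act at many ciliary genes, TTTGAA, the cell cycle homology region, and CCAAT, the CCAAT box. GTTGCC occurred in 2 of 9 ciliary promoters (22.22%), *Kif3a* (beginning 70 bases before the start) and *Kif17* (12 bases before it), in 3 of 14 transport promoters (21.43%) and 2 of 14 spindle promoters (14.29%), and thus in 7 of 38 tested kinesins (18.42%), against 9.45% of 21770 promoters of protein-coding genes. TTTGAA occurred in 4 of 14 spindle promoters, and in 0 ciliary and 0 transport promoters. That made 4 of 38 tested kinesins (10.53%), against 15.57% of all. CCAAT occurred in 7 of 14 spindle, 4 of 9 ciliary and 3 of 14 transport promoters. That made 14 of 38 tested kinesins (36.84%), against 36.5% of all. The *Kif27* window held none of the 3 letter strings. It was rich in G and C (69.2%), with 22 CpG, whereas *Kif6* had 51.6%. The median over tested kinesins was 58.6% against 53.2% for all promoters. Some windows counted overlap annotated untranslated regions, and those of *Kif1c* and *Kif18a*, each with GTTGCC, lie wholly within them. A match describes letters in the window and is not evidence that a factor binds there.

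In levels per length, the family ranged over several orders. *Kif5b*, the ubiquitous conventional kinesin heavy chain, had the highest mean level, 104.6 TPM, followed by *Kif21a* with 73.2, *Kif23* with 72.4, *Kif20a* with 58.1, *Kif3a* with 48.7 and *Kif2a* with 47.3 TPM. *Kif5b* ran from 84.5 to 113 TPM in controls and from 92.2 to 119 TPM in cKO. *Kif21a* ran from 57.6 to 88.1 TPM in controls and *Kif23* from 63.1 to 74.4 TPM, so that these neighbours in the order overlapped. Summed over members, kinesins reached 975 ± 45.6 TPM in controls and 946 ± 33.1 TPM in cKO (SD, n = 4 each). Spindle kinesins held 42.5% of the kinesin TPM, transport kinesins 39.8% and ciliary kinesins 16.2%.

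**Figure D2:**
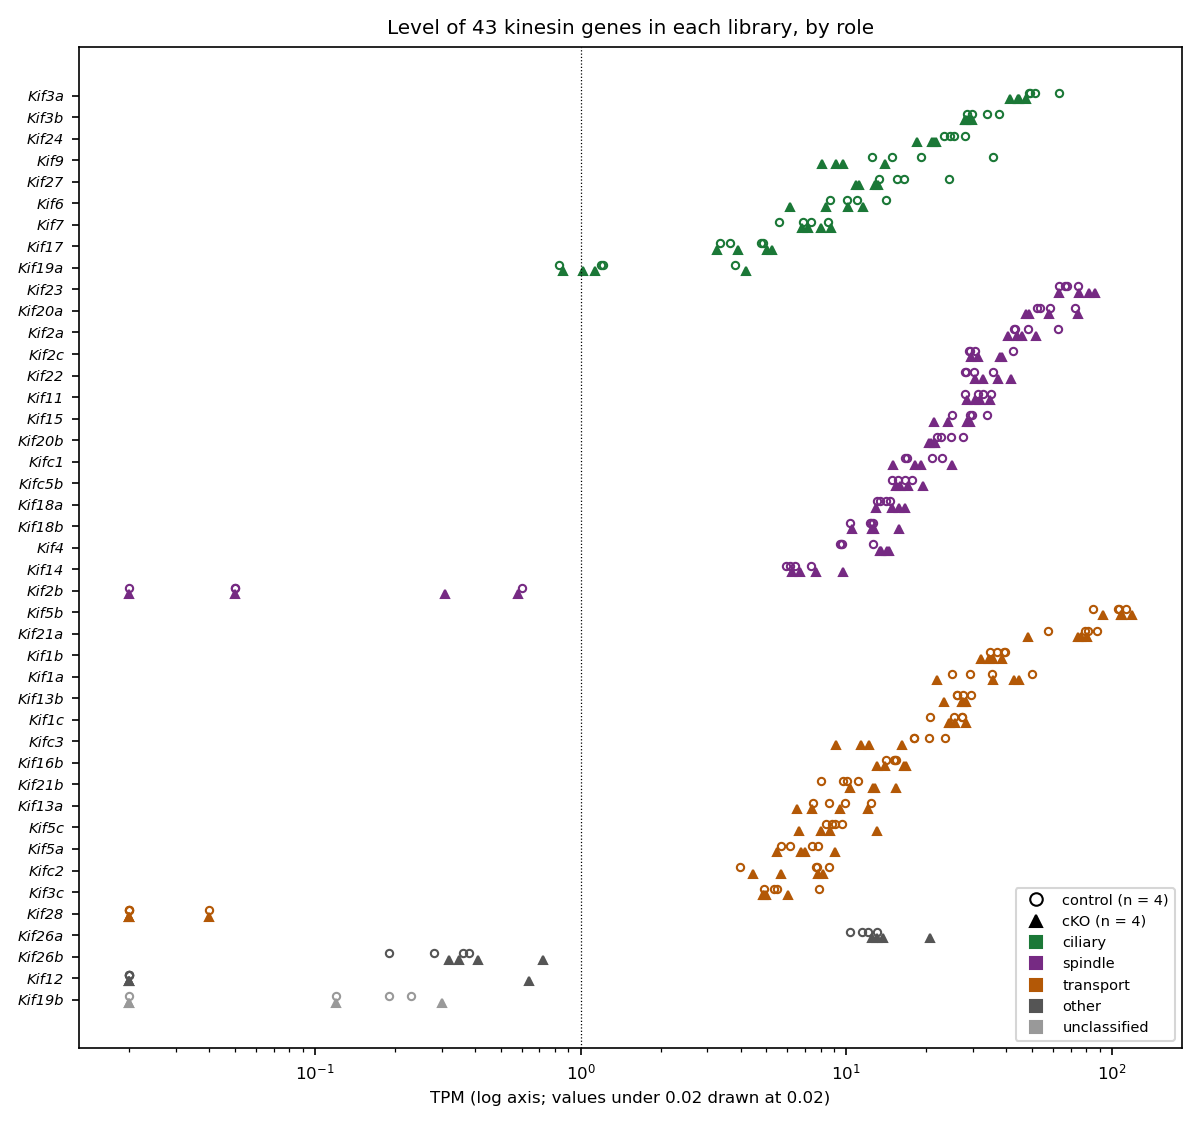
TPM of the 43 kinesin genes in each library (log x axis, values under 0.02 drawn at 0.02), ordered by mean within each role, with open circles for the 4 controls and triangles for the 4 cKO samples. *Kif5b* is the highest at a mean of 104.6 TPM, and the 5 genes that stay left of the dotted line at 1 TPM were not tested.

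The 5 kinesins below the filter were *Kif2b*, *Kif12*, *Kif19b*, *Kif26b* and *Kif28*. *Kif2b*, a relative of the microtubule depolymerase *Kif2a*, had 31 counts over all 8 libraries and *Kif19b* 24. *Kif26b* had 26, 20, 26 and 9 counts in controls and 28, 33, 31 and 15 in cKO, at most 0.72 TPM, and without the TPM filter its log2 fold change was 0.41 (SE 0.40) in edgeR, with an adjusted p of 0.737. *Kif28* had 2 counts in all, and the 7 counts of *Kif12* were all from cKO replicate 4. At this depth no genotype difference was detectable in *Kif2b*, *Kif12*, *Kif19b* and *Kif28*.

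Among ciliary kinesins, the summed level was 220, 156, 161 and 154 TPM in controls and 149, 133, 136 and 137 TPM in cKO. Every cKO sample was below every control in this sum, and control replicate 1, which had the highest pachytene marker sum, stood well above the rest. That library was the highest control for 9 of 9 ciliary kinesins. The part of stage composition in the sum was not tested.

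*Kif9* (ENSMUSG00000032489), a motor of the central apparatus of motile cilia and the sperm flagellum, had the lowest fold change of the family. It lies on chromosome 9 at 110305569 to 110355804, and 6.76% of its exon bases are shared with *Klhl18* on the other strand, whose own log2 fold change was -0.17. *Kif9* CPM were 60.8, 24.4, 32.1 and 20.3 in controls and 24.03, 16.05, 13.7 and 14.8 in cKO. Controls 1 to 3 were above the highest cKO value, that of cKO replicate 1, and control replicate 4 was below it. The log2 fold change was -1.01 (SE 0.37), with an unadjusted p of 0.0279 and an adjusted p of 0.503 in edgeR. Without control replicate 1 it was -0.58. Within replicates 2 to 4 of both genotypes, where the values do not overlap, it was -0.79 with an adjusted p of 4.4e-04, in a fit that called 3.78% of all genes lower.

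*Kif6* (ENSMUSG00000023999), an axonemal kinesin known from ependymal cilia, lies on chromosome 17 at 49922112 to 50216875. Its CPM were 21.3, 11.1, 14.03 and 11.7 in controls and 8.43, 10.5, 10.4 and 11.4 in cKO. Controls 2 and 4 were close to the cKO values, and the groups overlapped. On the log2 scale cKO over control was -0.51 (SE 0.21), with an edgeR adjusted p of 0.517, and -0.27 without control replicate 1.

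*Kif27* (ENSMUSG00000060176), a relative of *Kif7* linked to motile cilia, lies on chromosome 13 at 58432546 to 58506936. Its CPM were 53.0, 33.1, 35.8 and 30.3 in controls and 31.1, 30.9, 27.4 and 27.5 in cKO. Only control replicate 4 lay within the cKO range. Its log2 fold change was -0.38 (SE 0.16), with an edgeR adjusted p of 0.523. It came to -0.18 without control replicate 1.

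The kinesin-2 subunits *Kif3a* and *Kif3b*, which pair to drive anterograde intraflagellar transport, differed less. *Kif3a* had CPM of 89.0, 76.2, 73.4 and 68.6 in controls and 71.4, 68.7, 68.5 and 61.8 in cKO, a log2 fold change of -0.18 (SE 0.09). For *Kif3b* the CPM were 133, 96.0, 117 and 99.2 in controls and 99.3, 97.3, 104 and 97.5 in cKO, with a log2 fold change of -0.16 (SE 0.10). In both genes control replicate 1 was highest and the genotypes overlapped in CPM, and without that library the values were -0.10 and -0.062. *Kif17*, the homodimeric kinesin-2, had a positive log2 fold change of 0.11 (SE 0.21), or 0.23 without it.

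Kinesins that limit or signal at the axoneme tip gave mixed values. *Kif24*, a depolymerising kinesin that restrains cilium assembly with *Ccp110*, had CPM of 56.6, 41.2, 51.5 and 43.03 in controls and 44.1, 33.3, 39.4 and 44.9 in cKO, with a log2 fold change of -0.25 (SE 0.13), -0.16 without control replicate 1, and overlapping groups. *Kif19a*, which shortens motile cilia, had 7.54 CPM in control replicate 1, 1.36 to 1.80 CPM in the other controls, 3.25 CPM in cKO replicate 1 and 0.971 to 1.42 CPM in the other cKO samples. Both replicate 1 libraries were thus apart from the rest. The log2 fold change was -0.86 (SE 0.63). It became 0.10 without control replicate 1 alone, and -0.43 within replicates 2 to 4 of both genotypes. *Kif7*, a regulator of Hedgehog signalling, had a log2 fold change of 0.12 (SE 0.15), or 0.24 without that library.

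A list of 8 genes was compared as partners of the ciliary kinesins, among them proteins of the central apparatus. It was drawn up with earlier results of these data known, so its share of lower genes is not independent of them. In edgeR's test 0 of 8 were called, 6 were lower, and 5 had an unadjusted p under 0.05, all in the lower direction (62.5% against 6.28% of all genes tested), with a list median of -0.41 against 0.007 over all genes. *Hydin*, a central apparatus protein, had CPM of 85.7, 28.3, 39.4 and 25.4 in controls and 21.8, 8.87, 9.28 and 6.38 in cKO, so that the groups did not overlap. Its log2 fold change was -1.95 (SE 0.56), with an adjusted p of 0.436 in edgeR and 0.0347 in DESeq2. It was -1.42 without control replicate 1 and -1.93 within replicates 2 to 4 of both genotypes. *Ccp110*, the centriole cap protein, had CPM of 384, 229.9, 298 and 211 in controls and 211, 168, 189 and 173 in cKO. Only the lowest control and the highest cKO sample met, and its log2 fold change was -0.60 (SE 0.18), with an adjusted p of 0.433 in edgeR and 0.0381 in DESeq2. The other partners with an unadjusted p under 0.05 were *Ift88*, an intraflagellar transport subunit, at -0.39 (SE 0.11), *Cep97*, which binds *Ccp110*, at -0.28 (SE 0.10), and *Spef1*, a central apparatus protein, at -0.43 (SE 0.18), or -0.24 without control replicate 1. *Spag6l*, also of the central apparatus, had 94.7, 21.1, 35.4 and 20.1 CPM in controls and 31.7, 5.82, 5.23 and 3.76 CPM in cKO. Its log2 fold change was -1.88 (SE 0.90). It ran from -3.11 to -1.12 with single samples left out and was -2.37 within replicates 2 to 4. For *Spag6l*, cKO replicate 1 lay among the controls, as it did for the pachytene sum. *Ift20* and *Sufu* were at 0.04 and 0.11.

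**Figure D3:**
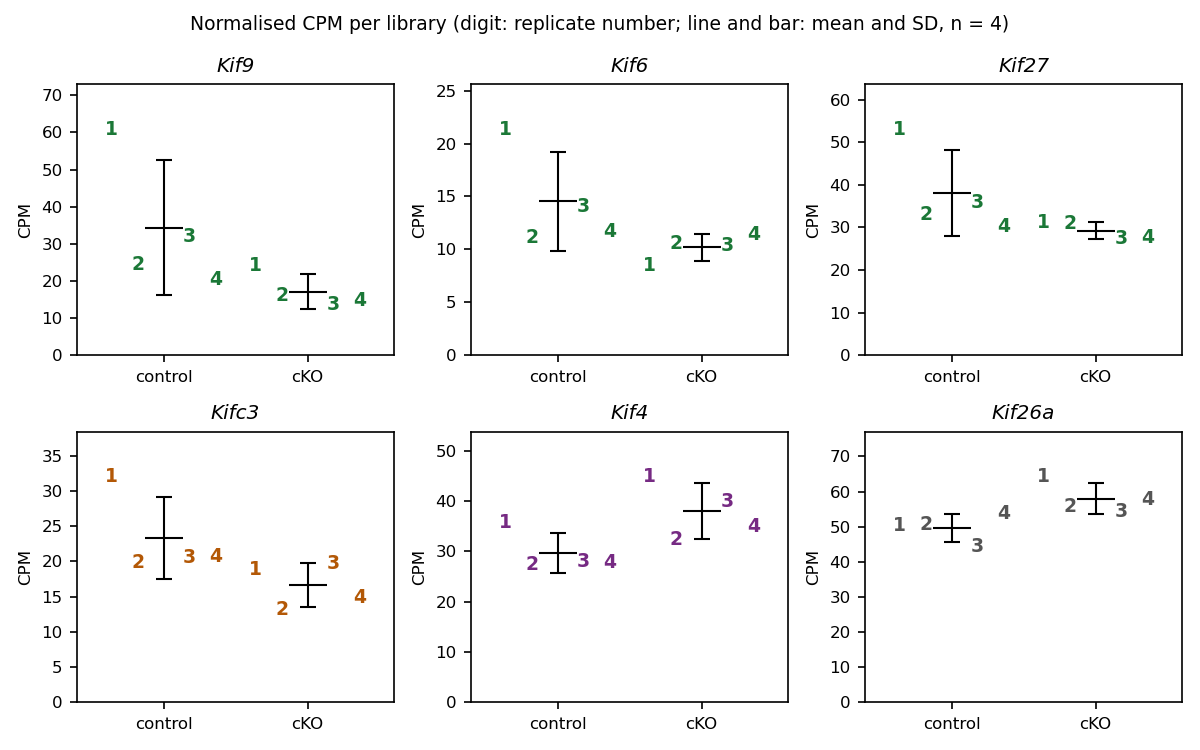
Normalised CPM in each library for the 6 kinesins with an unadjusted p under 0.05; each digit is the replicate number and the line and bar give the mean and SD of 4 samples, on axes that start at 0. Control replicate 1 is the highest control for *Kif9*, *Kif6*, *Kif27*, *Kifc3* and *Kif4*, and genotypes are apart only for *Kifc3* and *Kif26a*.

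Spindle kinesins had summed levels of 403 ± 37.3 TPM in controls and 414 ± 26.7 TPM in cKO (SD, n = 4 each). *Kif4* (ENSMUSG00000034311), a chromokinesin of chromosome condensation and the spindle midzone, was the one with the largest difference. It lies on chromosome X at 99669343 to 99770946, and 11.1% of its exon bases are shared with *Pdzd11*, whose log2 fold change was 0.20. *Kif4* CPM were 35.7, 27.4, 28.1 and 27.8 in controls and 44.8, 32.4, 39.9 and 34.9 in cKO. All cKO samples were above controls 2 to 4, and control replicate 1 lay within the cKO range. The log2 fold change was 0.35 (SE 0.13), with an unadjusted p of 0.0177 and an adjusted p of 0.453 in edgeR. Within replicates 2 to 4 it was 0.36 with an adjusted p of 0.035, in a fit that called 0.451% of all genes higher.

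The 3 most abundant spindle kinesins overlapped between genotypes. *Kif23*, the motor of the centralspindlin complex that holds the intercellular bridge, had CPM of 84.4, 93.5, 86.3 and 86.7 in controls and 83.7, 97.4, 102 and 99.4 in cKO, with a log2 fold change of 0.12 (SE 0.08). *Kif20a*, which works with Aurora B in cytokinesis, had CPM of 133, 91.5, 103 and 95.1 in controls and 132, 89.0, 89.8 and 91.2 in cKO, so that both replicate 1 libraries stood above the other samples. Its log2 fold change of -0.07 (SE 0.16) became 0.060 without control replicate 1 and -0.10 within replicates 2 to 4. Of its exon bases, 61.5% are shared with opposite-strand genes. *Kif2a*, a microtubule depolymerase, had CPM of 116, 89.0, 99.7 and 82.5 in controls and 103, 87.0, 82.6 and 81.8 in cKO. Its log2 fold change of -0.13 (SE 0.11) was -0.027 without control replicate 1 and -0.11 within replicates 2 to 4. *Kif2a* shares 41.1% of its exon bases with *Dimt1*.

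The replicate 1 libraries stood out for spindle kinesins in both genotypes, as they did for ciliary kinesins. Control replicate 1 was the highest control for 12 of 14 spindle kinesins, and cKO replicate 1 the highest cKO sample for 8 of 14. Among ciliary kinesins these counts were 9 of 9 and 6 of 9. How often replicate 1 was the highest or lowest sample over all genes was not computed. *Kif2c*, the centromeric depolymerase, had 68.1 CPM in control replicate 1 against 43.8 to 45.9 CPM in the other controls. In cKO replicate 1 it had 63.2 CPM against 45.6 to 47.2 CPM in the other cKO samples. *Kif11*, the motor that pushes spindle poles apart, and *Kif15*, which can act in its place, had log2 fold changes of 0.01 (SE 0.10) and -0.12 (SE 0.11). The other spindle motors lay between -0.12 for *Kif20b* and 0.13 for *Kif22*. *Kifc1* and *Kifc5b*, near-identical minus-end motors between which reads could be divided, had 24.0 ± 4.13 and 18.4 ± 1.12 CPM in controls (SD, n = 4), and 23.5 ± 2.52 and 19.5 ± 0.467 CPM in cKO.

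Of 12 spindle partner genes 0 had an unadjusted p under 0.05, with 6 in each direction. They included *Cenpe*, the kinetochore kinesin not covered by the naming rule, with a log2 fold change of 0.00 (SE 0.07) and 86.2 to 92.0 CPM in controls against 85.2 to 92.6 CPM in cKO. *Racgap1*, which binds *Kif23* in centralspindlin, was at 0.05 (SE 0.07). *Prc1*, the microtubule bundler that *Kif4* binds, was at -0.40 (SE 0.23). It was -0.17 without control replicate 1 and -0.31 within replicates 2 to 4. Control replicate 1 was at 148 CPM and the other controls at 70.6 to 100.3 CPM.

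Transport kinesins totalled 387 ± 41.1 TPM in controls and 377 ± 43.8 TPM in cKO (SD, n = 4 each). *Kifc3* (ENSMUSG00000031788), a minus-end directed motor that acts at epithelial junctions, was the one whose genotypes did not overlap. Its CPM were 32.0, 19.9, 20.6 and 20.7 in controls and 18.8, 13.2, 19.7 and 14.9 in cKO. The nearest samples, control replicate 2 and cKO replicate 3, differed by little. As cKO over control on the log2 scale it was -0.49 (SE 0.18), with an unadjusted p of 0.0216 and an adjusted p of 0.471 in edgeR, and -0.29 without control replicate 1. *Kifc3* lies on chromosome 8 at 95826350 to 95930066, and 34.8% of its exon bases are shared with other genes.

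The 3 most abundant transport kinesins overlapped between genotypes. *Kif5b* had CPM of 284, 317, 349 and 335 in controls and 312, 371, 363 and 351 in cKO, with a log2 fold change of 0.12 (SE 0.08). *Kif21a*, a regulator of microtubule growth, had 152, 230.4, 252 and 240.4 CPM in controls and 162, 252, 227 and 232 CPM in cKO, so that the replicate 1 libraries were the lowest of each genotype, and its log2 fold change of -0.00 (SE 0.18) changed sign with the scaling. *Kif1b*, which carries mitochondria and synaptic vesicle precursors, had CPM of 146, 145, 140.4 and 141 in controls and 144, 149, 163 and 157 in cKO, with a log2 fold change of 0.10 (SE 0.06) that was -0.095 on log2(TPM + 1).

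In contrast to the other roles, cKO replicate 1 was the lowest cKO sample for 10 of 14 transport kinesins, and control replicate 1 the lowest control for 7 of 14. *Kif1a*, the synaptic vesicle precursor motor, had 64.6 CPM in control replicate 1 against 83.9 to 98.2 CPM in the other controls. *Kifc2* had 7.54 CPM there against 13.7 to 14.9 CPM. The sum of the 8 Sertoli genes was also lowest in these 2 libraries of their genotypes, at 4667 and 4769 TPM. *Clu* held most of it, at 3754 and 3831 TPM. In TPM *Amh*, *Gata4* and *Rhox5* were lowest in control replicate 3 among controls, and *Rhox5* was highest in cKO replicate 1 among cKO samples. The part of Sertoli cells in these kinesin values was not tested.

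**Figure D4:**
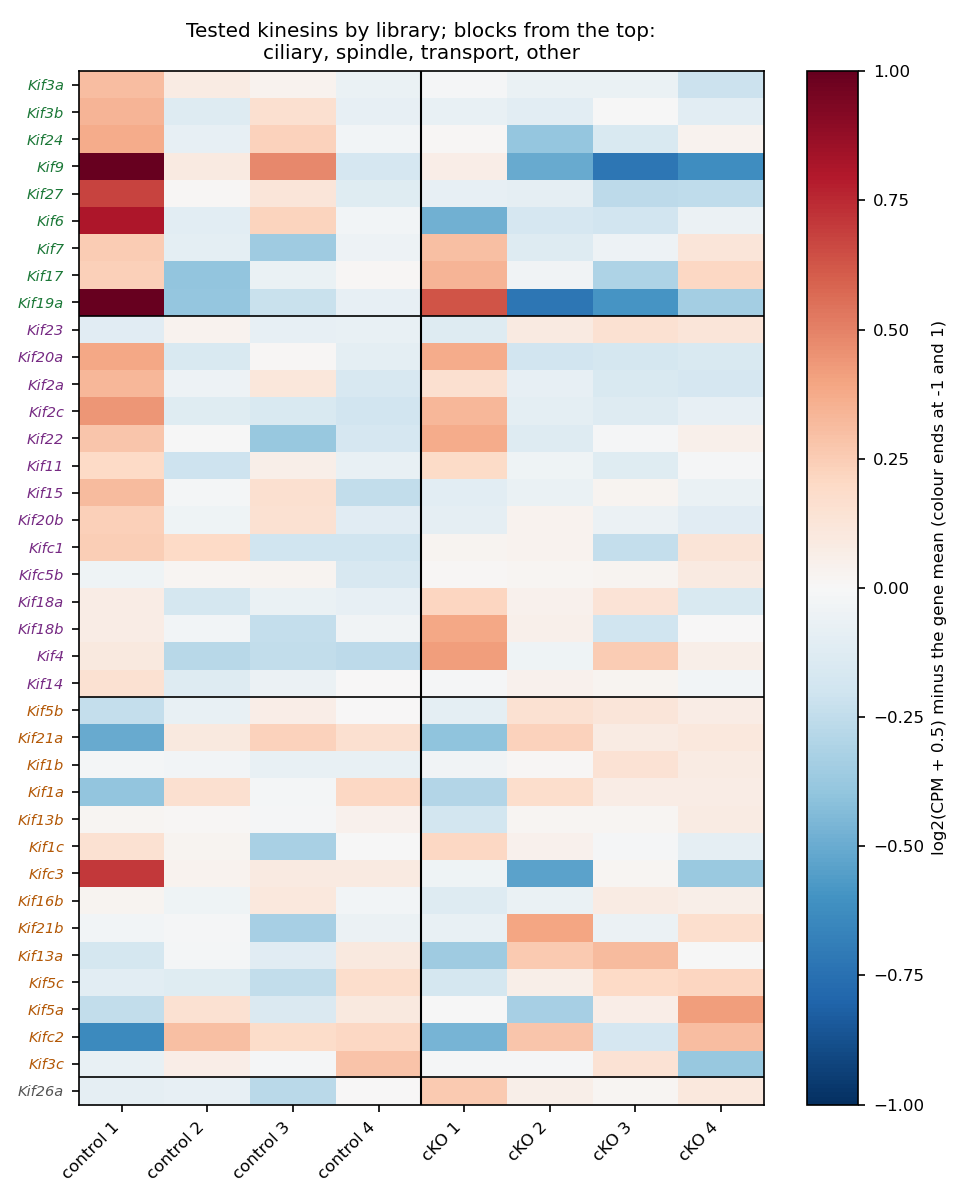
Log2(CPM + 0.5) minus the gene's mean over 8 libraries (colour, ends at -1 and 1) for the 38 tested kinesins (rows, by role) in each library (columns, controls left of the line). Control replicate 1 is red for most ciliary and spindle kinesins and blue for several transport kinesins, and cKO replicate 1 is similar to it for spindle and transport kinesins.

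The remaining transport kinesins had log2 fold changes between -0.13 for *Kif3c* and 0.22 for *Kif21b*, a relative of *Kif21a*. The neuronal heavy chains *Kif5a* and *Kif5c* were at 0.09 (SE 0.16) and 0.15 (SE 0.12), the endosome motor *Kif16b* at -0.03 (SE 0.09) and *Kif13b* at -0.03 (SE 0.07). Of 12 light chains and adaptors, 1 had an unadjusted p under 0.05 (8.33% against 6.28% of all genes lower), *Mapk8ip2*, a JNK scaffold and kinesin adaptor, with 34.7, 10.96, 12.9 and 10.9 CPM in controls and 13.01, 5.37, 6.56 and 8.08 CPM in cKO, a log2 fold change of -1.07 (SE 0.46) and an edgeR adjusted p of 0.561. Without control replicate 1 it was -0.49, and within replicates 2 to 4 of both genotypes -0.80. *Klc3*, a light chain known from the sperm tail, had 6.25, 5.83, 4.30 and 6.17 CPM in controls and 9.83, 6.60, 7.82 and 6.45 CPM in cKO, with every cKO sample above every control, a log2 fold change of 0.45 (SE 0.21) and an edgeR adjusted p of 0.568. The light chains *Klc1* and *Klc2* were at -0.00 (SE 0.10) and -0.07 (SE 0.06).

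*Kif26a* (ENSMUSG00000021294), an atypical kinesin without motor activity that restrains GDNF-Ret signalling in enteric neurons, was the one kinesin with all cKO samples higher in CPM. It lies on chromosome 12 at 112112642 to 112148181 with no exon shared with another gene. Its CPM were 50.3, 50.6, 44.3 and 53.9 in controls and 64.2, 55.8, 54.2 and 57.7 in cKO, and the closest pair, control replicate 4 and cKO replicate 3, nearly met. The log2 fold change was 0.22 (SE 0.09), with an unadjusted p of 0.0327 and an adjusted p of 0.520 in edgeR.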

How the data were processed

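RNA of germ cells from 8 mice (4 control, 4 cKO) was analysed. Reads were aligned by the authors with STAR 2.7.9a to mm39 and quantified with RSEM 1.3.3, per the labels and the study's methods. The authors deposited RSEM expected counts, without normalization between samples, and TPM values, scaled for gene length and depth. Of all expected counts, zeros included, 6.37% were not whole, and all were rounded. The 20187 genes that reached 1 TPM in any library entered a comparison of the 8 samples in edgeR 4.0.16 in R 4.3.3 (TMM, robust quasi-likelihood F-test, no covariate). P-values were adjusted by Benjamini-Hochberg over all genes tested, with a threshold of 0.05. CPM use TMM factors, and 3 counts equal 0.190 to 0.234 CPM. Libraries were separate mice, and the SD and SE values given include variation between mice. The floor of 3 counts covers counting error only.

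Members and lists were chosen with earlier results of these data known. Values of every sample are given for *Mgat2*, for tested kinesins with an unadjusted p under 0.05, with genotypes apart in CPM or with an adjusted p under 0.05 when the replicate number was blocked, and for the 3 kinesins of highest mean TPM in each role. Partner genes were named when they met one of those first conditions. *Kif2c*, *Kif1a*, *Kifc2*, *Kif19a* and the other partners were named as examples after their values were seen. The alternatives were DESeq2 1.42.0, limma 3.58.1 (trend on TPM, voom), other scalings and filters, the replicate block, replicates 2 to 4, and leaving out each sample. The fit was tested on simulated data. The replicate numbers were not taken as pairs, since no source used here ties them to a litter or day. Promoters and exon overlaps came from GRCm39 with GENCODE annotation. *Kif16a* and *Kif25* were not analysed here. A promoter and a neighbouring gene are not reported here.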

Additional observations from a re-analysis of the deposited data

Results flagged for a closer look

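For each tested kinesin and *Mgat2*, the highest and lowest sample of each genotype were set against the other three by Dixon's ratio, the gap to the nearest sample over the whole range. Of 78 groups of 4 samples, 8 exceeded the 95% critical value for 4 samples, where chance gives about 1 in 20 for independent groups. These groups come from the same 8 libraries and are not independent. The share over all genes was not computed, so the count is not a result about kinesins. Control replicate 1 accounted for 5 of the 8. It was high for *Kif19a* (7.54 CPM, nearest 1.80), *Kif2c* (68.1 CPM, nearest 45.9), *Kif4* (35.7 CPM, nearest 28.1) and *Kifc3* (32.0 CPM, nearest 20.7), and low for *Kifc2* (7.54 CPM, nearest 13.7). In cKO replicate 1, *Kif20a* (132 CPM, nearest 91.2) and *Kif2c* (63.2 CPM, nearest 47.2) were high. In control replicate 3, *Kif21b* was low (44.4 CPM, nearest 53.6). The 2 replicate 1 libraries also had the highest pachytene marker sums of their genotypes, 1661 and 499 TPM, and the part of these markers in the values was not tested.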

How the results depend on the processing

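The count of kinesins called stayed at 0 under DESeq2, the other scalings and filters, both limma tests and each sample left out. It was 3 lower (*Kif9*, *Kif27*, *Kifc3*) and 1 higher (*Kif4*) with the replicate block, and 1 lower (*Kif9*) and 1 higher (*Kif4*) in replicates 2 to 4 of both genotypes, where backgrounds were 6.45%, 0.802%, 3.78% and 0.451% of all genes. At an unadjusted p under 0.05, the 4 lower kinesins became 2 with limma-voom, 8 with the block, 2 in replicates 2 to 4 and 1 to 6 when single samples were left out. Only *Kif9* was lower without control replicate 1, *Kifc3* without cKO replicate 3 and *Kif6* without cKO replicate 4. The 2 higher became 4 with the block, 5 in replicates 2 to 4 and 0 to 3 with single samples left out. The share of all genes at that unadjusted threshold was not computed for the alternatives. These counts therefore cannot be read as a result about kinesins. On log2(TPM + 1) and log2(TPM + 0.1), *Kif6* and *Kif26a* were no longer under 0.05 while *Kif3a*, *Kif24* and *Kif21b* were.

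Partner genes called, 0 by edgeR, were 2 lower by DESeq2, 6 with the block and 3 in replicates 2 to 4. Of all genes, 1.42%, 6.45% and 3.78% were called lower in those settings. The 6 partners lower at an unadjusted p under 0.05 were 3 to 7 with single samples left out. The 0 higher became 1 with upper-quartile factors, both TPM tests and the block, and 0 to 1 with single samples left out. For these unadjusted partner counts, too, the share of all genes was not computed. *Mgat2* passed only in DESeq2 (-1.06, adjusted p 0.0242). The ciliary median ran from -0.26 to -0.19 over the alternatives that kept all samples or replicates 2 to 4, and from -0.32 to -0.10 with single samples left out.

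Of the 24 genes given in depth by the naming rule, 21 kept their sign in all 19 alternatives. *Kif20a* turned to 0.060 without control replicate 1 and ran from -0.23 to 0.060 with single samples left out. *Kif21a* turned to 0.017 with upper-quartile factors, 0.0044 with limma-voom and 0.0042 with the block, and ran from -0.14 to 0.11 with single samples left out. *Kif1b* turned to -0.095 and -0.097 in the TPM tests. Among genes named as examples, *Kif19a* turned to 0.10 without control replicate 1, and *Kif2c* went from -0.0014 to 0.18. Within replicates 2 to 4 of both genotypes these genes were at -0.43 and 0.049. The cause was not tested. Same-numbered samples correlated at 0.091 to 0.68 (mean 0.34) in their deviations from the group means over 15285 genes, against a mean of -0.088 for differently numbered samples. This contrast cannot show pairing, since deviations from a group mean sum to 0 and the 0.68 was of replicate 1 alone. Among replicates 2 to 4, same-numbered samples were at 0.091 to 0.33 and differently numbered ones at 0.066 to 0.34. One same-numbered pair was under 0.1 and not every sample correlated best with its own number. The numbers were therefore not taken as pairs, and whether they share a litter or day is unknown. With 4 samples a group and totals of 12584726 expected counts or more, differences in low genes such as *Kif2b* were not detectable.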

Other observations

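The ratio of expected count to TPM, scaled to the gene's mean and to each library's median, tracks the effective gene length that RSEM assigned in each library, which moves when the mix of transcripts does. Over 37 kinesins with at least 50 counts in every sample, the highest over the lowest of the 8 ratios had a median of 1.24, against 1.154 over 11656 genes. It exceeded 1.5 in 5 kinesins, *Kifc3* (1.61), *Kif22* (1.54), *Kif13a* and *Kif14* (both 1.53) and *Kif1a*, and in 12.8% of all genes. For *Kif9* it was 1.02 and for *Kif3b* 1.01, so that their counts and TPM moved together. *Kif19a*, too low for this comparison, had means of 1.76 TPM in controls and 1.80 TPM in cKO, whereas its mean CPM were 3.07 and 1.69.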
